A study of Mus musculus with 2 samples.

Results

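The 10 genes described here are long non-coding RNA (lncRNA) genes that carry small nucleolar RNAs (snoRNAs) in their introns: Snhg1, Snhg3, Snhg5, Snhg6, Snhg8, Snhg12, Snhg15, Snhg17, Gas5 and Epb41l4aos. They were chosen by gene name, with earlier results of these data known. They make up 84 of the 15172 annotated transcripts (10 of 10944 gene names) and 5 of the 16840 assembled transcripts in which spleen RNA was measured. The CIA library came from spleen cells of mice with collagen-induced arthritis, a model of inflammatory joint disease raised by injecting collagen. The healthy library came from spleen cells of mice that received no treatment. Both titles name day 40, but for the arthritic animals the labels elsewhere put the time of killing at day 42, counted from the first immunization. Neither genotype, strain, age nor the number of mice behind a library is given in the sources used here. Each group had 1 library, so every difference below is between 2 libraries, carries no replicate error and has no test.

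A snoRNA host is transcribed by RNA polymerase II and spliced, and the snoRNAs are trimmed out of the removed introns. Box C/D snoRNAs guide ribose methylation and box H/ACA snoRNAs guide pseudouridine formation, mostly in ribosomal RNA. Many hosts begin with a run of pyrimidines, the 5′ terminal oligopyrimidine (TOP) start also found in ribosomal protein genes. Their spliced RNAs are often short-lived, and Gas5 is known for its accumulation in growth-arrested lymphocytes.

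In GENCODE M21 the 10 hosts contain 32 genes typed as snoRNA on their own strand. Gas5 holds 9 of them, Snhg1 holds 8, Snhg12 holds 4, Snhg17 holds 3, Snhg3 and Snhg5 hold 2 each, and Snhg6, Snhg8, Snhg15 and Epb41l4aos hold 1 each. The position of these snoRNAs in the isoforms matters for the values, because RNA of a finished snoRNA and RNA of a host exon covering it have the same bases. The most abundant isoforms of Snhg3 and Snhg1 begin inside a snoRNA. Their first 80 bases are shown from the GENCODE transcripts (GRCm38), with bases that belong to the snoRNA in capitals.
Snhg3 ENSMUST00000141090: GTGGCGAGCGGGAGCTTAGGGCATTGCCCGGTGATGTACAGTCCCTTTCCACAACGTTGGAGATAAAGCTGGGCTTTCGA
Snhg1 ENSMUST00000205909: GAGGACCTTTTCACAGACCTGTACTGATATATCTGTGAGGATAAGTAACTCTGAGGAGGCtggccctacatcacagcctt
The Snhg3 isoform starts at chromosome 4, position 132352933, on the minus strand, and holds 159 of the 205 bases of Snora73a. The Snhg1 isoform starts at chromosome 19, position 8724005, on the plus strand, and holds 60 of the 72 bases of the snoRNA gene Gm25855. Snora73a and its neighbour Snora73b, the other snoRNA of Snhg3, differ at 7 of 205 bases (96.6% identity), so reads of this pair can be shared.

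Further snoRNAs that lie whole in an abundant isoform are shown with the C box (TGATGA in the first 20 bases) and D box (CTGA in the last 12 bases), or the ACA box (in the last 8 bases), in capitals, searched on the snoRNA strand only. Of the 1558 annotated snoRNA genes, 19.3% hold both C and D letters in these places and 47.6% hold ACA. Of the 32 host snoRNAs, 14 hold both C and D letters, 9 others of at least 120 bases hold ACA, and 9 meet neither rule. Among these last, Gm26003 of Snhg17 ends in ACA but, at 113 bases, is below that length.
Snord47 of Gas5 (chr1:161038082-161038158, plus strand): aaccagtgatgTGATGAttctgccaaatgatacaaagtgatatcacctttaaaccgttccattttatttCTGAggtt
Gm25789 of Gas5 (chr1:161038308-161038383, plus strand): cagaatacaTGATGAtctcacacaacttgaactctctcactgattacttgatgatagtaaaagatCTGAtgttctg
Snora24 of Snhg8 (chr3:123507937-123508066, minus strand): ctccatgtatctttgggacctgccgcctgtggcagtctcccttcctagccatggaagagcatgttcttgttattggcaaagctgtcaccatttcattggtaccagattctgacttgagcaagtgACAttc

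The start sites of 6 hosts are shown, because a pyrimidine start is what this gene class is known for. They come from the RefSeq promoter table (GRCm38.p6), which holds 8 of the 10 hosts. Only the entries that hold a pyrimidine run, as marked below, are shown. Those of Snhg1 and Snhg15, and a further entry each of Gas5 and Snhg17, hold none. Each line gives 20 bases before and 20 bases from the start site on. Capitals mark the longest run of at least 5 bases that opens with C and goes on with C or T, searched on the gene's strand.
Gas5 (chr1:161035146-161035185): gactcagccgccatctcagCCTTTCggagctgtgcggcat
Snhg8 (chr3:123508317-123508356): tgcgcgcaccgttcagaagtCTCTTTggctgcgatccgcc
Snhg12 (chr4:132308658-132308697): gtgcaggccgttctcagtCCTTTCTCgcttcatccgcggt
Snhg3 (chr4:132353667-132353706): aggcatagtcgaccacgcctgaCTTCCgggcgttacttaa
Snhg5 (chr9:88522878-88522917): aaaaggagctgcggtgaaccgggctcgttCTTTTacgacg
Snhg17 (chr2:158361503-158361542): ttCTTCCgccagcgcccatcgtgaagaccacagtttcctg
Such a run lay in this window in 6 of the 10 host promoter entries, near the 45.9% of all 32851 promoters. Exactly at the start site such a run opened in 2 of the 10, those of Gas5 and Snhg8, against 2.51% of all promoters. In Gas5 the marked run opens just before the start site, and its last 5 bases are the run that opens at it. In the GENCODE transcripts, 10 of the 84 host isoforms (11.9%) began with such a run, against 2.16% of the annotated transcripts of the table. Of these 10 isoforms, 4 Gas5 isoforms were listed at 0 in both libraries. The others went both ways: ENSMUST00000182872 of Snhg5 stood at 1.07 FPKM (CIA) against 2.35 FPKM (healthy), and ENSMUST00000196466 of Snhg8 stood at 1.04 and 0.666 FPKM.

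Levels are given in FPKM (fragments scaled to transcript length and to library size) and differences as log2((CIA FPKM + 0.1)/(healthy FPKM + 0.1)), called the log2 ratio. The pseudocount of 0.1 FPKM understates the ratio of low transcripts, and folds below include it. A gene value is the sum over its annotated transcripts, and genes were compared where either library reached 0.5 FPKM. Across the 2765 such genes the median log2 ratio was 0.30, so a typical lncRNA gene stood 1.23-fold higher in the CIA library. The annotated FPKM summed to 10246 in the CIA and 8718 in the healthy library. Of 6 haematopoietic lncRNAs, 5 were listed and 4 reached 0.5 FPKM. Their sums were 23.5 FPKM (CIA) against 24.0 FPKM (healthy), but Mir142hg was listed at 0 in CIA spleen, against 14.3 FPKM in healthy spleen. AW112010 of the same list went the other way as an annotated gene, at 19.1 against 5.28 FPKM, and turned again with assembled isoforms added, at 20.4 against 31.0 FPKM. Of 5 lncRNAs typical of other tissues, 4 were listed and summed to 1.47 and 1.25 FPKM. Protein-coding markers were not analysed here, and the part that a different mix of cells has in the results was not tested. In bulk spleen RNA, fewer cells of a type and less RNA per cell cannot be told apart.

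All 10 hosts passed the filter, and 8 of the 10 were lower in the CIA library, where 30.4% of all genes were lower. The exceptions were Snhg6 and Snhg17. All 10 lay below the median gene. Their median log2 ratio was -0.53, against 0.30 over all genes, or -0.83 after centring on that median. Without isoforms that have any snoRNA base in an exon, a setting chosen after seeing the data, the host median was -0.15, with no value for Snhg12. At a 2-fold size rule only Epb41l4aos was lower (1 of 10, against 4.20% of all genes) and none was higher (14.0% of all genes). Summed over the 10 hosts, FPKM was 167.5 in CIA and 260.1 in healthy spleen (log2 ratio -0.63). That sum was 1.63% of the annotated FPKM in the CIA library and 2.98% in the healthy library. Snhg3 gave more of it than any other host, at 78.2 and 132.8 FPKM, and without Snhg3 the sums were 89.3 and 127.3 FPKM (log2 ratio -0.51).

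**Figure D1:**
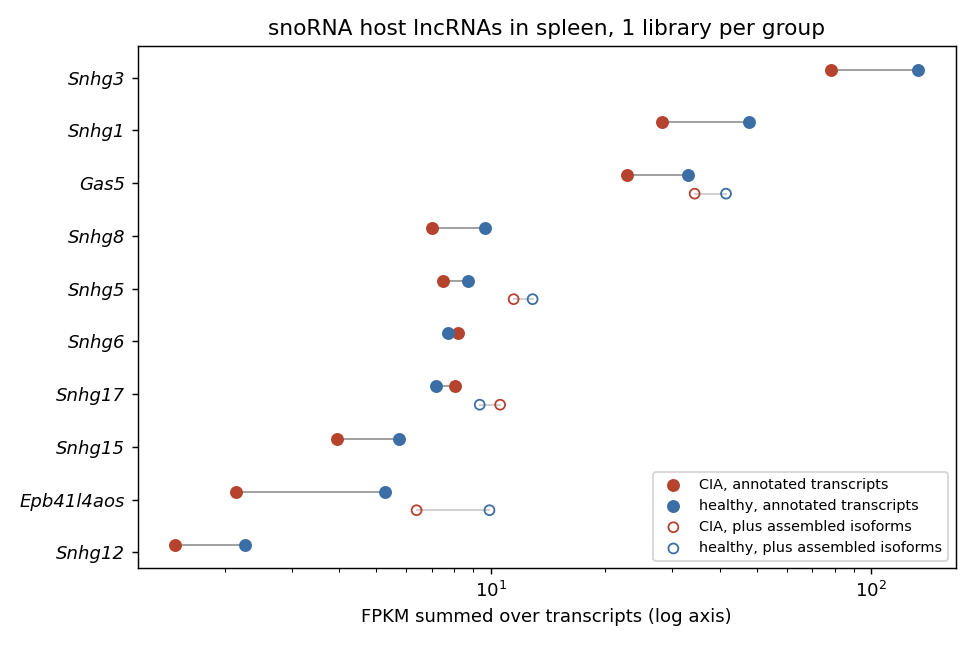
FPKM of the 10 hosts in the CIA (red) and healthy (blue) library on a log axis, 1 library per group and no error bars. Filled points are sums of annotated transcripts and open points add assembled isoforms for the 4 genes that have them; the CIA point lies to the left of the healthy point for 8 of the 10 hosts.

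**Figure D2:**
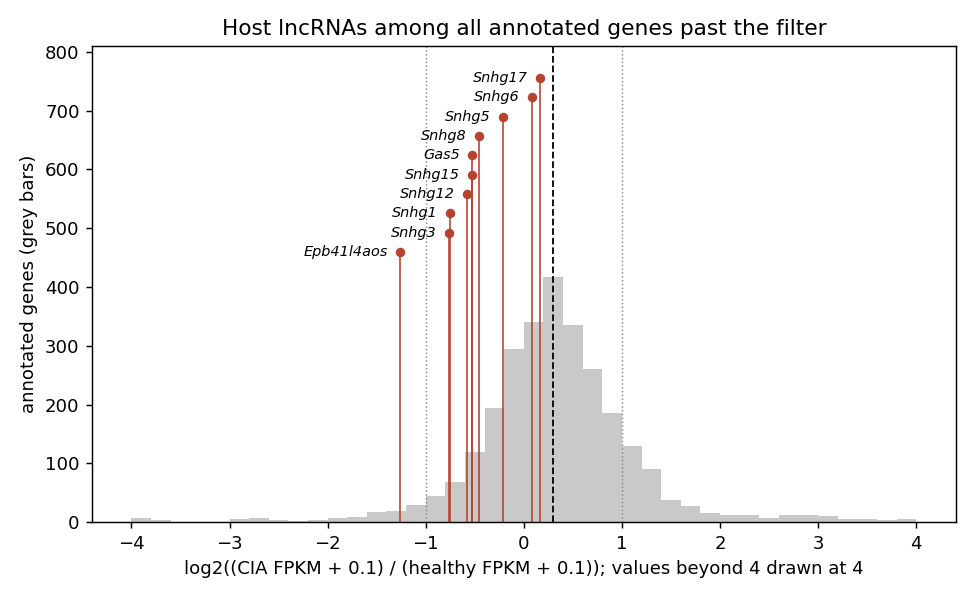
Log2 ratios of 2765 annotated genes (grey bars, number of genes per 0.2) with the 10 hosts marked in red at arbitrary heights. The dashed line is the median of all genes at 0.30 and the dotted lines are 2-fold; all 10 hosts lie to the left of the dashed line.

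The 7 hosts with a mean of at least 5 FPKM also lay low among genes that reached this mean, which were not matched further for abundance. Of 328 genes with a mean of at least 5 FPKM, 32.9% were lower in the CIA library and the median log2 ratio was 0.21. The 7 hosts in this class were all below that median, and 5 of them were lower in the CIA library. By rank from the lowest ratio among 2765 genes, Epb41l4aos was gene 76, Snhg3 gene 177, Snhg1 gene 179, Snhg12 gene 242, Snhg15 gene 262, Gas5 gene 264 and Snhg8 gene 306. Snhg5 was gene 532, Snhg6 gene 970 and Snhg17 gene 1108.

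Snhg3 (ENSMUSG00000085241, chromosome 4, 132348014 to 132353686, minus strand) was the most abundant host. It carries Snora73a and Snora73b, H/ACA RNAs related to human E1/U17 that act in ribosomal RNA processing. It stood at 78.2 FPKM in CIA spleen, against 132.8 FPKM in healthy spleen (log2 ratio -0.76). The isoform that begins inside Snora73a, ENSMUST00000141090, held 93.8% of the CIA and 86.9% of the healthy value, at 73.4 and 115.4 FPKM. The isoforms with no snoRNA base differed more. Together they stood at 4.83 FPKM in CIA spleen, against 17.4 FPKM in healthy spleen (log2 ratio -1.83). Most of this was ENSMUST00000152943, a spliced isoform of 3 exons, at 1.24 and 12.6 FPKM (9.54-fold lower). ENSMUST00000136127 was 2.41-fold lower, at 1.32 against 3.32 FPKM, whereas ENSMUST00000155816 went the other way, at 1.83 against 0.978 FPKM. Exons of Snhg3 overlap exons of Rcc1, a coding gene of chromosome condensation, on the same strand, so reads of the pair cannot be told apart there. Gm17300, annotated on the opposite strand over Snhg3, stood at 9.48 and 9.37 FPKM.

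Snhg1 (ENSMUSG00000108414, chromosome 19, 8723475 to 8726443, plus strand) starts 106 bases from the start of Slc3a2, an amino acid transporter gene on the opposite strand. It hosts mainly box C/D snoRNAs. The gene stood at 28.2 FPKM in CIA spleen, against 47.7 FPKM in healthy spleen (log2 ratio -0.76). Its 9-exon isoform ENSMUST00000205909, which begins inside Gm25855, accounted for most of the gap, at 11.3 against 27.2 FPKM (2.39-fold lower). The isoform ENSMUST00000206519, whose 2 exons cover 7 whole snoRNAs, stood at 6.20 against 9.20 FPKM. ENSMUST00000205539, with 6 whole snoRNAs, was nearly level at 1.87 against 1.74 FPKM. The fully spliced 10-exon isoform ENSMUST00000206155, with no snoRNA base, was higher in the CIA library, at 0.890 against 0.0455 FPKM. Isoforms without any snoRNA base together stood at 3.52 against 2.66 FPKM (log2 ratio 0.39), although one of them, ENSMUST00000205825, was listed at 0 against 0.650 FPKM. The direction without snoRNA isoforms depended on how they are defined: leaving out only isoforms with a whole snoRNA in an exon, which keeps ENSMUST00000205909, gave Snhg1 a log2 ratio of -0.99. Of 12 Snhg1 isoforms past the filter, 3 passed the 2-fold rule as lower and 2 as higher.

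Gas5 (ENSMUSG00000053332, chromosome 1, 161034422 to 161038539, plus strand) starts 427 bases from Zbtb37, a zinc finger gene on the opposite strand. It stood at 22.8 FPKM in CIA spleen, against 33.0 FPKM in healthy spleen (log2 ratio -0.53). The difference came from few isoforms in the 3′ part of the gene. ENSMUST00000159399, which holds Gm25789, was listed at 0 in CIA spleen, against 6.59 FPKM in healthy spleen. ENSMUST00000160551, which holds Mir5117 (typed as a snoRNA) and Gm25789, stood at 2.66 against 4.88 FPKM, and ENSMUST00000163081 at 0.344 against 1.68 FPKM. The most abundant isoform did not differ by as much: ENSMUST00000159037, which holds Snord47, stood at 11.4 against 11.2 FPKM. ENSMUST00000161229, whose 4 exons take in 6 whole snoRNAs, stood at 3.11 against 2.64 FPKM. An assembled isoform that ends upstream of these 3, MSTRG.2136.8, was higher in the CIA library at 11.5 against 8.31 FPKM. With both assembled isoforms added, the Gas5 locus stood at 34.3 against 41.5 FPKM and its log2 ratio moved to -0.27.

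**Figure D3:**
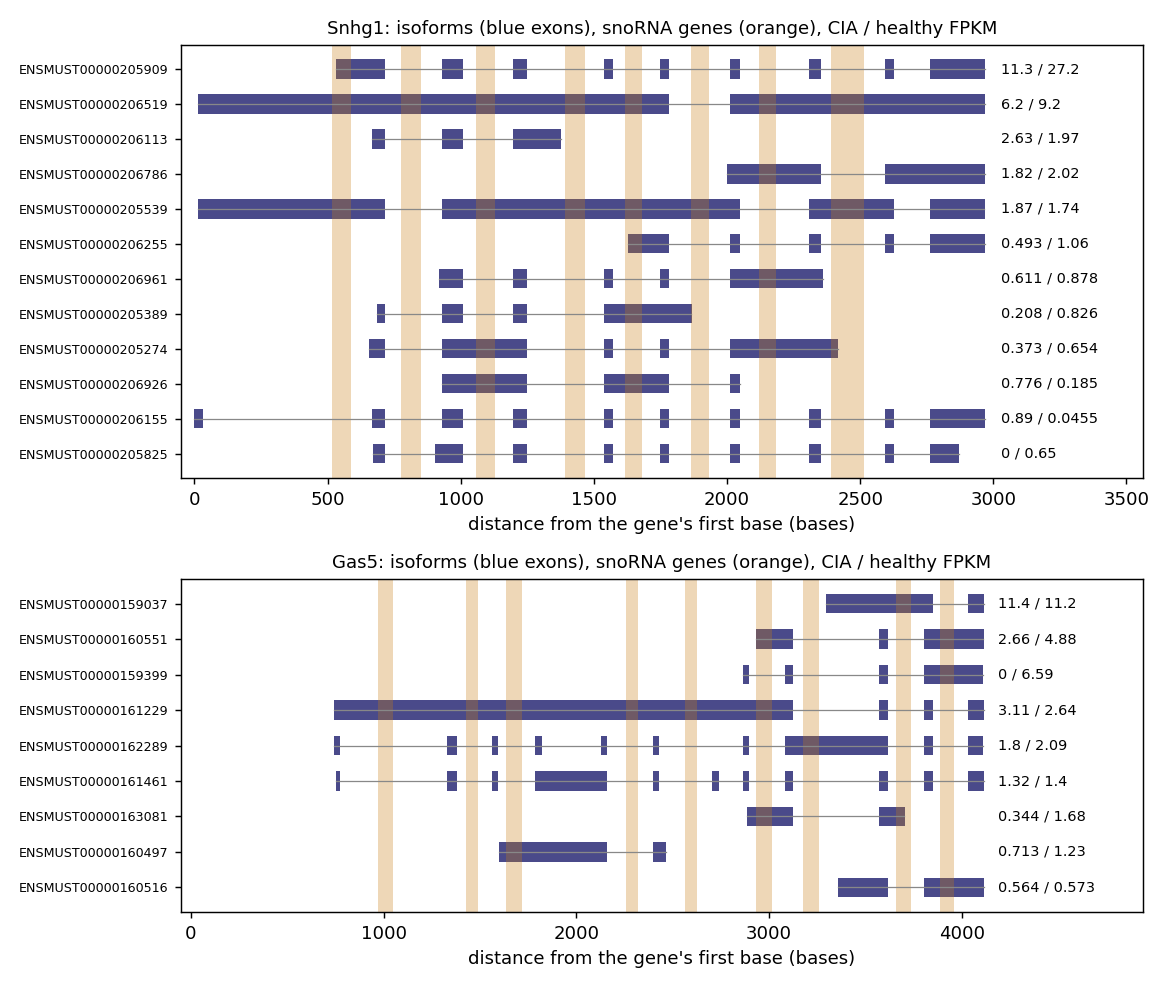
Exons (blue) of the annotated Snhg1 and Gas5 isoforms past the filter, with snoRNA genes shaded in orange and the CIA and healthy FPKM at the right. The x axis is the distance from the first base of the gene, and the upper Snhg1 isoform (11.3 against 27.2 FPKM) begins inside the first shaded snoRNA.

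Snhg8, Snhg15 and Snhg5 were lower in the CIA library as genes, each mainly through a single isoform. Snhg8 (ENSMUSG00000104960, chromosome 3, 123507552 to 123508404, minus strand), the host of Snora24, stood at 6.99 against 9.66 FPKM (log2 ratio -0.46). Its 2-exon spliced isoform ENSMUST00000199645 stood at 2.04 FPKM (CIA) against 5.00 FPKM (healthy), 2.39-fold lower. The unspliced isoform ENSMUST00000198509, which keeps Snora24, stood at 3.92 and 3.99 FPKM. The share of Snhg8 FPKM in that unspliced isoform was thus 56.0% in the CIA and 41.3% in the healthy library.

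Snhg15 (ENSMUSG00000085156, chromosome 11, 6525591 to 6528760, minus strand), the host of Snora9, stood at 3.94 against 5.74 FPKM (log2 ratio -0.53). The 3-exon isoform ENSMUST00000124818 stood at 1.12 against 3.69 FPKM, 3.10-fold lower. ENSMUST00000134527, which keeps Snora9, stood at 1.20 against 1.17 FPKM, and ENSMUST00000129570 at 1.34 against 0.748 FPKM. As in Snhg8, the isoform that keeps the snoRNA was level, and the lower value lay in an isoform with no snoRNA base. Snhg5 (ENSMUSG00000097195, chromosome 9, 88521050 to 88522929, minus strand), the host of Snord50a and Snord50b, stood at 7.49 against 8.70 FPKM (log2 ratio -0.21). Here the isoform with Snord50a, ENSMUST00000182872, was 2.10-fold lower, and that with Snord50b, ENSMUST00000183045, stood at 0.909 against 0.433 FPKM. The 2 snoRNAs differ at 1 of 72 bases. The most abundant isoform ENSMUST00000190033 stood at 5.14 against 5.66 FPKM, and an assembled isoform at 3.99 against 4.17 FPKM.

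Epb41l4aos (ENSMUSG00000087590, chromosome 18, 33794892 to 33795986, plus strand) hosts a single snoRNA, Gm23639, in an intron. It had the lowest gene ratio of the hosts. It stood at 2.14 against 5.28 FPKM (log2 ratio -1.26, or 2.40-fold lower), and nearly all of it was the 3-exon isoform ENSMUST00000146010 at 2.02 against 5.06 FPKM. An assembled isoform of 2 exons stood at 4.24 against 4.64 FPKM. With that isoform added, the locus stood at 6.38 against 9.92 FPKM and the log2 ratio was -0.63, within 2-fold. Snhg12 (ENSMUSG00000086290, chromosome 4, 132308623 to 132311024, plus strand) stood at 1.48 against 2.26 FPKM (log2 ratio -0.58). Its most abundant isoform ENSMUST00000137343 stood at 1.48 against 2.06 FPKM and takes in Snora44, Snora61 and Snord99. No Snhg12 isoform free of snoRNA bases was above 0 in either library.

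Snhg6 and Snhg17 were the hosts with the higher value in the CIA library, by less than 2-fold, and both lay below 0 after centring on the median gene. Snhg6 (ENSMUSG00000098234, chromosome 1, 9941959 to 9944118, minus strand), the host of Snord87, stood at 8.18 against 7.72 FPKM (log2 ratio 0.08, or -0.22 centred). Nearly all of it was ENSMUST00000182819, at 7.89 against 7.48 FPKM. Snhg6 overlaps exons of Mcmdc2 on the opposite strand. Snhg17 (ENSMUSG00000085385, chromosome 2, 158353700 to 158361580, minus strand) stood at 8.03 against 7.17 FPKM (log2 ratio 0.16, or -0.13 centred). Its isoforms went both ways: the single-exon ENSMUST00000186993 stood at 2.55 against 1.70 FPKM, ENSMUST00000149667 at 2.25 against 2.19 FPKM, and ENSMUST00000154030 at 0.345 against 0.942 FPKM.

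Across hosts, 65 of the 84 annotated isoforms were above 0 in a library and 41 reached 0.5 FPKM. Of the 41, 12 were at least 2-fold lower in CIA spleen (6.13% of all 3068 such transcripts were), among them 2 listed at 0 there, ENSMUST00000159399 of Gas5 and ENSMUST00000205825 of Snhg1. At least 2-fold higher were 2 of the 41 (15.7% of all were). Both of these reached 0.5 FPKM in the CIA library only. Some of the 12 lower ones, among them the 2 listed at 0, reached it in the healthy library only. A filter on either library lets in such isoforms, so the counts rest partly on it, in the hosts as over all transcripts. The median log2 ratio was -0.29 over the 41 and 0.30 over all 3068 transcripts past the filter. The 41 are not separate members, since Snhg1 gave 12 of them and Gas5 gave 9, and overlapping models of a gene divide shared reads. The 3068 transcripts were not matched for isoforms per gene. The 26 isoforms with snoRNA bases in their exons had a median of -0.46 and the 15 without had -0.14, with 6 at least 2-fold lower in each kind. By GENCODE type, 24 host isoforms that retain an intron had a median of -0.17, and the other 17 had -0.45. Over the whole table the median was 0.21 for 111 intron-retaining transcripts and 0.30 for the other 2957.

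**Figure D4:**
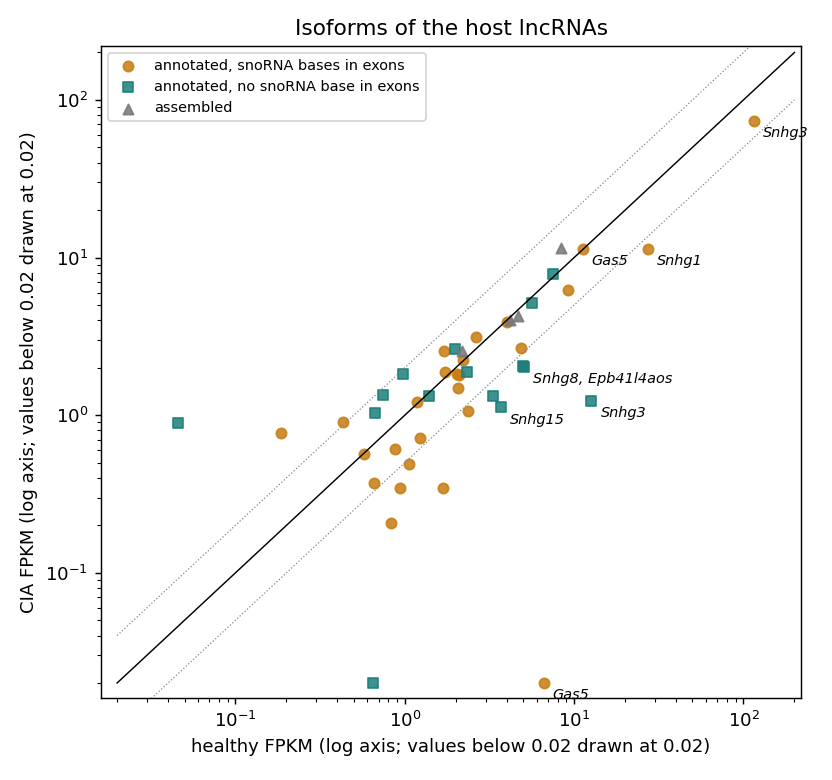
CIA against healthy FPKM of each host isoform with at least 0.5 FPKM in either library, on log axes, by whether exons hold snoRNA bases (annotated) or the isoform was assembled. The solid line marks equal values and the dotted lines 2-fold; 12 annotated isoforms lie below the lower dotted line once the pseudocount is added and 2 above the upper one.

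The hosts did not share a common shift between the 2 kinds of isoform. In 7 hosts both kinds were above 0. The snoRNA-bearing share of the gene's FPKM was higher in the CIA library in 3 of them, Snhg3, Snhg8 and Snhg15 (30.5% against 20.5%). It was lower in 4: Snhg1 (87.5% against 94.4%), Snhg5, Snhg17 (65.8% against 67.5%) and Gas5 (93.0% against 94.6%). Isoform FPKM values are the authors' estimates of how shared reads divide among overlapping models. How finished snoRNA contributes to them was not tested.

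**Figure D5:**
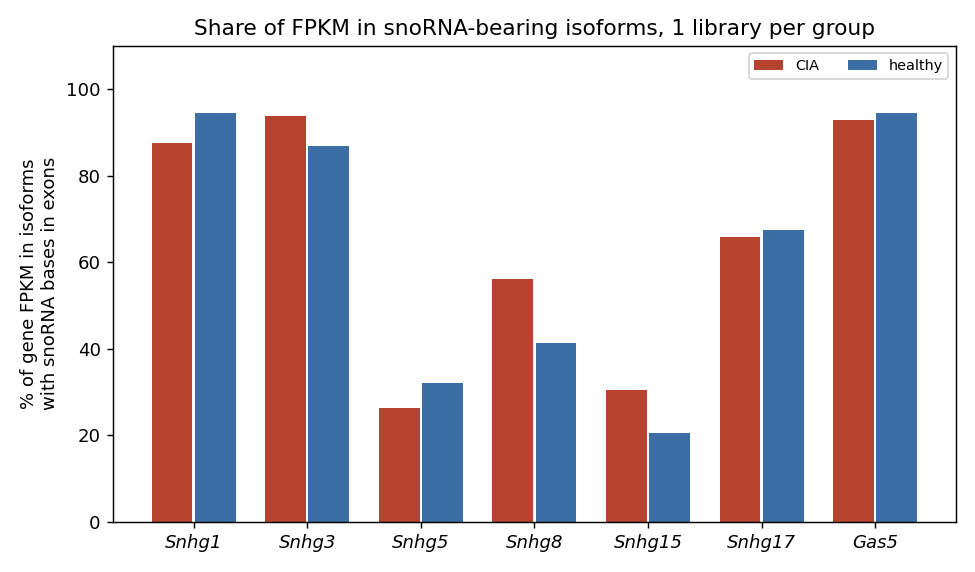
Share of each host's annotated FPKM in isoforms whose exons hold snoRNA bases, for the 7 hosts with both kinds above 0, in the CIA (red) and healthy (blue) library. Bars start at 0; the CIA bar is the higher one for Snhg3, Snhg8 and Snhg15.

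With assembled isoforms added, which exist for Gas5 (2), Snhg5, Snhg17 and Epb41l4aos, 8 of the 10 loci were lower in the CIA library, against 30.3% of 2799 loci. The median log2 ratio of the host loci was -0.50 and that of all loci 0.30. No host locus was 2-fold lower (3.79% of all loci were) and none was 2-fold higher (13.4% were). The sums over the 10 loci were 189.7 FPKM (CIA) against 279.6 FPKM (healthy).

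In the authors' deposited table, 4 of 41 host transcripts past the filter were marked significant and lower in CIA (1.47% of all 3068 were). None was marked higher (4.89% of all were). Their p in the authors' deposited table was 0.0367 for Snhg1 ENSMUST00000205909, 0.0389 for Epb41l4aos ENSMUST00000146010, 0.0421 for Snhg8 ENSMUST00000199645 and 0.0721 for Snhg5 ENSMUST00000182872. Only 3 host transcripts had p below 0.05 in the authors' deposited table, so the mark did not follow that limit. The lowest q of a host transcript in the authors' deposited table was 0.425. The deposited p was 1 for 64 of the 84 host transcripts in the authors' deposited table, among them ENSMUST00000152943 of Snhg3.

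Other snoRNA hosts went both ways. Of 16 further hosts listed by name, 10 were in the table and 6 passed the filter, with a median log2 ratio of 0.37, near that of all genes. Zfas1, host of Snord12 RNAs, stood at 10.8 against 12.5 FPKM (log2 ratio -0.20), and its locus with assembled isoforms at 12.4 against 19.9 FPKM (log2 ratio -0.68). Snhg20 stood at 8.09 against 5.37 FPKM, Snhg14 at 2.63 against 2.48 FPKM and Snhg18 at 1.61 against 1.44 FPKM. At least 2-fold higher were 2 of the 6 (14.0% of all genes were). These were Dancr (0.873 against 0.156 FPKM) and the imprinted Rian (0.909 against 0.360 FPKM). Both reached 0.5 FPKM in the CIA library only, where they were high. With a minimum of 1 FPKM the median of the listed hosts was 0.12. A further 41 genes of the table have an annotated snoRNA inside their span on the same strand, and 14 passed the filter. Their median log2 ratio was -0.03, 8 were lower (30.4% of all genes were) and 6 higher, and 11 of the 14 lay below the median gene, so this list leaned the same way as the 10 hosts. The 5 most abundant of them were Cct6a (54.5 against 75.2 FPKM), 1110038B12Rik (9.20 against 14.8 FPKM), 2410006H16Rik (13.5 against 9.23 FPKM), AA465934 (4.11 against 5.29 FPKM) and 2900076A07Rik (4.70 against 3.66 FPKM). These values count only transcripts listed as lncRNA, 7 of them for Cct6a, and leave out any coding transcripts of the same gene. The median of the 10 hosts was below that of either list in gene sums, with no test of the difference.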

How the data were processed

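RNA from spleen cells was extracted with TRIzol and depleted of ribosomal RNA, per the labels' protocols, in 1 CIA and 1 healthy library. The authors deposited FPKM per transcript, with 0.0001 in place of 0, which was read as 0. The deposited ratio (fold) and its log2 are CIA over healthy, per the file headers, and the ratio was checked within a relative tolerance of 0.0001. Per the file headers, p-value and q-value columns come from the authors' comparison. StringTie is named in the submitters' processing notes. Aligner, build, strandedness and test: not given in the sources used here. In 2 damaged cells of genes outside the hosts, values were assigned from the deposited ratio. Coordinates of the 15172 annotated transcripts match GENCODE M21, which is on GRCm38.

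Transcripts were summed per gene name, and per locus with assembled isoforms of class codes j, o or u. A snoRNA base in an exon was counted from GENCODE on the same strand, with double entries merged. FPKM keeps no counts, so depth is unknown and no interval can be given. The hosts, the lists and the comparisons were chosen with earlier results of these data known. All 10 hosts are named, with isoforms of at least 0.5 FPKM that the comparisons turn on, the listed hosts that passed the filter and the 5 most abundant annotated hosts. The 2-fold rule was run on simulated FPKM with known changes and no added noise. That run checks the calculation and cannot tell how often unreplicated libraries differ 2-fold without a real change. The alternatives were other pseudocounts, filters, centring, transcript choice and snoRNA-free isoforms. Python 3.11.15, numpy 2.4.6, pandas 2.3.3 and matplotlib 3.10.9 were used.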

Additional observations from a re-analysis of the deposited data

How the results depend on the processing

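No paired analysis was possible because neither group had a replicate. Over the settings tried, the log2 ratio of the hosts' summed FPKM ranged from -0.93 (centred) to -0.56 (locus sums), and the count of hosts below the median gene from 8 (no filter) to 10. Centring on the median of annotated genes took the host gene median from -0.53 to -0.83 and the locus median from -0.50 to -0.79. It also raised the count of 2-fold lower hosts from 1 to 3 and set the median of the other hosts at 0.073. Snhg6 turned to -0.22 and Snhg17 to -0.13. A common shift makes such changes by construction. Centring lowers the ratio of every gene alike, and the share of all genes 2-fold lower after it is not given here. With only the most abundant transcript per gene the host median was -0.30, 3 hosts were 2-fold lower and the median of the other hosts was 0.16. The share of all genes 2-fold lower is not given for this setting either, so neither count of 3 has its background beside it. A pseudocount of 1 FPKM or locus sums left 0 hosts 2-fold lower. The median of the other hosts was 0.15 unfiltered and 0.12 at a minimum of 1 FPKM, which change the genes counted. Without isoforms that have any snoRNA base in an exon, a setting chosen after seeing the data, the host median was -0.15, Snhg1 turned from -0.76 to 0.39 and Snhg3 went to -1.83. The planned setting, without isoforms that hold a whole snoRNA in an exon, left Snhg1 at -0.99 and Snhg3 at -0.76, so the turn of Snhg1 rests on the wider definition; Snhg12 gives no value without snoRNA isoforms. The comparison with genes of at least 5 FPKM was likewise added after seeing the data. Of 58 single-host values under alternatives, 50 kept their direction and their side of the 2-fold rule.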
